A study of Mus musculus with 6 samples.

Results

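The 34 genes described here make, recycle, use or break down glutathione, and were taken as a list of gene names: the subunits of glutamate-cysteine ligase with glutathione synthetase and reductase, the gamma-glutamyl enzymes, the glutathione peroxidases, and the glutathione transferases of the cytosol and of membranes. They were found by NCBI Gene ID in tables of 45679 genes with a symbol, and all 34 had a row in each table. Of the 34 genes 33 reached a TPM of 1 in at least 1 library, where TPM is a transcript abundance scaled for transcript length and for the library. Gpx2, a peroxidase gene best known from gut epithelium, did not: its level was 0.188 and 0.265 TPM in the old MIT-001 libraries, 0 TPM in each old PBS library, and 0.362 and 0 TPM in the young PBS libraries. All 33 expressed genes passed the filter for testing, which asked for 1 TPM or more in 2 or more libraries.

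Glutathione is a tripeptide of glutamate, cysteine and glycine that cells make in 2 steps. Glutamate-cysteine ligase joins the amino acids of the rate-limiting step and glutathione synthetase adds glycine. Peroxidases spend glutathione on hydrogen peroxide and lipid peroxides, transferases join it to reactive compounds such as lipid aldehydes, and the reductase returns the oxidised form to use. In the ovary glutathione is known for protecting the oocyte and its granulosa cells, and steroid-making cells, which produce oxidants as they work, hold several transferases in abundance.

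The libraries were made from ovaries of wild-type BDF1 mice, a hybrid laboratory strain, with 2 libraries in each of 3 groups. Mice aged 65 weeks were given MIT-001, a scavenger of reactive oxygen species directed to mitochondria, by injection into the abdomen at 0.5 mg/kg over 7 days. The controls, mice aged 65 weeks and mice aged 8 weeks, were injected with PBS, a saline buffer. How many animals a library stands for is not in the labels, so p-values measure only the spread between these libraries, which may be technical.

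The ratio of coverage to FPKM put the depth at 6.34 to 7.14 gigabases a library, and 14346 to 16338 genes per library reached a TPM of 1. Cell type markers went against the age labels. Summed TPM of 10 oocyte genes was 88.4 and 44.7 in the libraries labelled old MIT-001, 476 and 505 in those labelled old PBS, and 323 and 36.1 in those labelled young PBS. That of 5 plasma cell genes was 1108 and 219.6 in old MIT-001, 138 and 131 in old PBS and 1559.9 and 374 in young PBS. The libraries labelled old PBS were thus the highest of the 6 in oocyte transcripts and the lowest in plasma cell transcripts. The replicates labelled young PBS also stood apart from each other, above all in Gpx3. Groups are therefore named as labelled throughout, each pair of values is given as replicate 1 and replicate 2, and every direction holds for the libraries as labelled only. In whole ovaries, fewer cells of a type and less RNA per cell cannot be told apart.

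A few genes held most of the glutathione transcripts. The secreted peroxidase gene Gpx3, the cytosolic peroxidase gene Gpx1, the mu class transferase genes Gstm1 and Gstm2 and the microsomal transferase gene Mgst1 together made up 67.1% to 86.6% of the summed TPM of the 34 genes in a library. Gstm1, Gstm2, Gpx1 and Mgst1 were the 4 genes above 500 TPM in every library, and 3 more, Gsta4, Gstp1 and Gsto1, lay between 100 and 500 TPM in every library. At the other end, Gpx2, Ggt1, Gsta1, Gstm3 and Hpgds stayed at or under 10 TPM in every library, and 26 genes had 10 TPM or more in all 6. The 34 genes together summed to 8864 and 8311 TPM in the old MIT-001 libraries, to 7919.6 and 6124 TPM in the old PBS libraries and to 5755 and 14154 TPM in the young PBS libraries, or 0.576% to 1.42% of all TPM. Young PBS replicate 2 was the highest and young PBS replicate 1 the lowest, with the other 4 libraries between them.

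**Figure D1:**
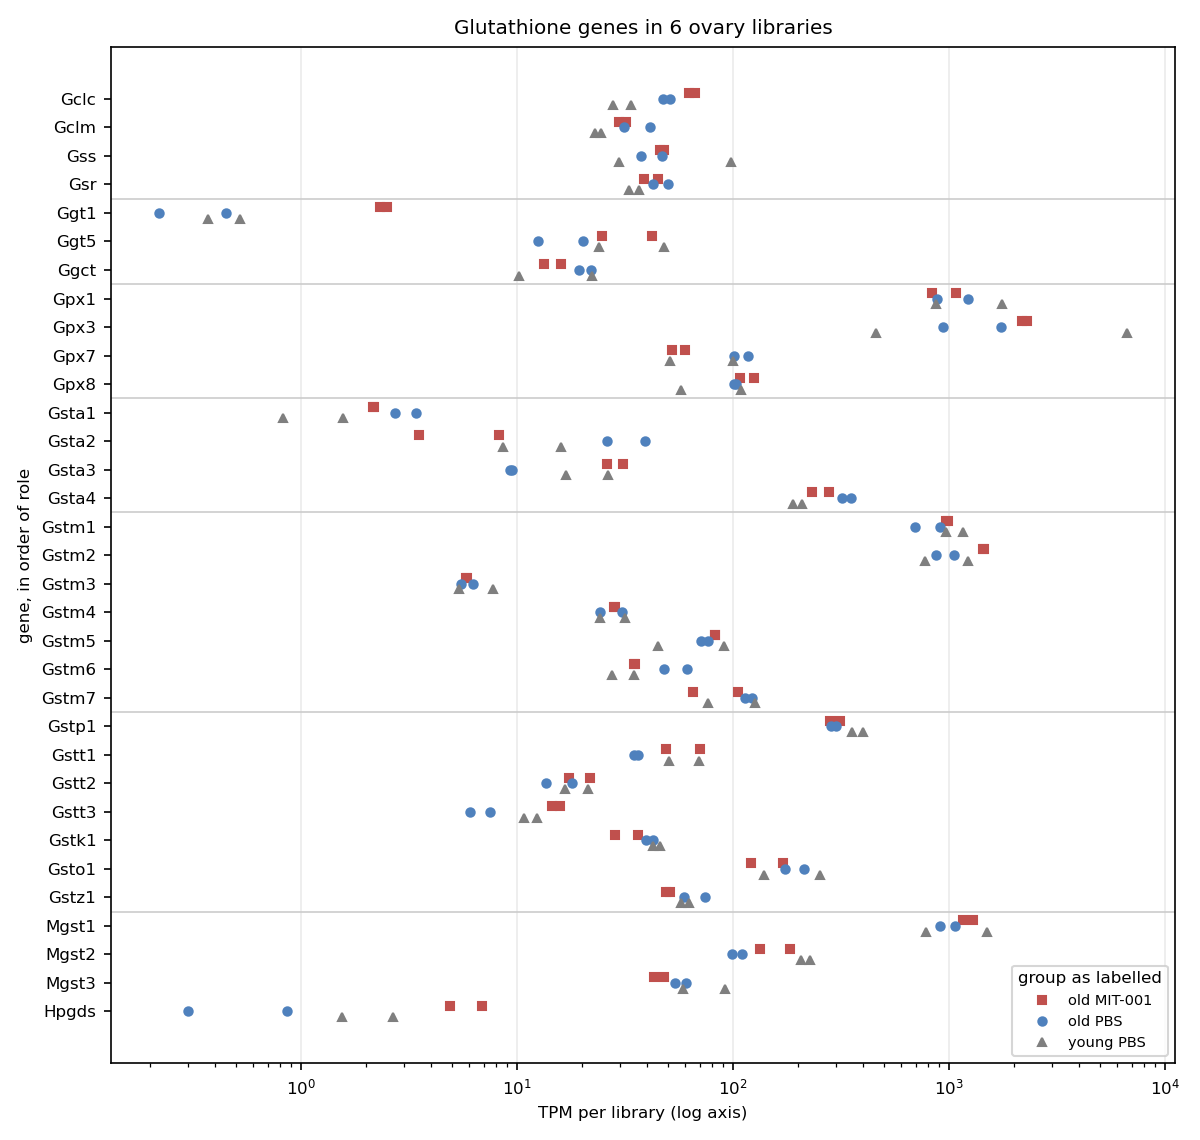
TPM of the 33 expressed glutathione genes in each of the 6 libraries, on a log axis, in order of role from synthesis (top) to the microsomal transferases and prostaglandin D synthase (bottom). Squares are old MIT-001, circles old PBS and triangles young PBS libraries, as labelled, and Gpx3 shows the widest gap within a group, at 460.5 and 6626 TPM in the young PBS libraries.

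The spread within groups set what could be resolved. The median ratio of the higher to the lower library over the expressed genes was 1.11 in old MIT-001, 1.22 in old PBS and 1.56 in young PBS. The widest pair was Gpx3 in young PBS, at a ratio of 14.4, and only 0.273% of all genes tested differed more between these libraries on the log2(TPM + 1) scale.

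Many genes of glutathione synthesis and conjugation are known targets of the transcription factor NRF2, which binds the antioxidant response element, and the core of that element was therefore searched for as TGACNNNGC on both strands of the RefSeq promoter windows (build GRCm38.p6), 250 bases before to 50 bases after a start site. Windows were found for 29 of the 34 genes, and not for Gclc, Gsr, Ggt5, Gsta4 and Gstt2. The core was in a window of 7 of the 29 genes (24.1%), Gclm, Ggct, Ggt1, Gsta3, Gstm5, Gstm7 and Mgst1, against 3781 of 27025 genes with a window (14%) and 1995 of 12025 tested genes with a window (16.6%). By window, it was in 9 of 40 windows of these genes and in 4071 of 32851 windows in all (12.4%). A match says only that these letters are present, and no match only that they are not in this window. The upstream sequences of Gclm, Gsta3 and Gsta2 are shown because Gclm encodes the regulatory subunit of the rate-limiting ligase, and because the alpha class genes Gsta3 and Gsta2 stood in opposite order across the groups. They run 5′ to 3′ in the direction of the gene, in lower case with the core in capitals, and end where the gene begins in the deposited tables. The windows are chr3:122245307-122245486 for Gclm on the plus strand, where the core lies on the minus strand 134 bases before the RefSeq start site, chr1:21240335-21240564 for Gsta3 on the plus strand, with the core on the plus strand 121 bases before the start site, and chr9:78347193-78347395 for Gsta2 on the minus strand, with no match.
Gclm: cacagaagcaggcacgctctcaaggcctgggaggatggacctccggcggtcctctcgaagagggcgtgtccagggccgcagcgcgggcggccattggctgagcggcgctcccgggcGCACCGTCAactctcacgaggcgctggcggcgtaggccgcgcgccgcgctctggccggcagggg
Gsta3: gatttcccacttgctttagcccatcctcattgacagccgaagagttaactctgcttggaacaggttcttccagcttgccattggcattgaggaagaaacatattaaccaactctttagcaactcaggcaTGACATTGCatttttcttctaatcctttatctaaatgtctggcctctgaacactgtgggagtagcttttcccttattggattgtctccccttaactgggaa
Gsta2: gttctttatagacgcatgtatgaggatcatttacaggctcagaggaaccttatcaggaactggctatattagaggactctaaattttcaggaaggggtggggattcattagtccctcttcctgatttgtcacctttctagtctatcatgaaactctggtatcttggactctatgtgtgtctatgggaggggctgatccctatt

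Age without treatment was compared between old PBS and young PBS. In the old PBS libraries, transcripts of Gclc, Gclm, Gsr, Gpx7, Gsta1, Gsta2, Gsta4 and Gstm6 stood above both young PBS libraries. Those of Ggt5, Gsta3, Gstk1, Gstm1, Gstp1, Gstt1, Gstt3, Mgst2 and Hpgds stood below both. Genes were tested with limma, a linear model fitted to log2(TPM + 1) of all genes, and log2 fold changes are on that scale. None of the 33 genes was called at a Benjamini-Hochberg adjusted p below 0.05 over 16473 genes, where 0.0364% of all genes were called. The smallest adjusted p was 0.210, for Mgst2, and 11 of the 33 genes (33.3%) had an unadjusted p below 0.05, against 18.1% of all genes. Of these, 6 were higher (18.2%) and 5 lower (15.2%) in old PBS, against 14.6% and 3.55% of all genes. The libraries of the groups did not overlap for 8 genes that were higher (24.2%) and 9 that were lower (27.3%) in old PBS, against 38.1% and 11% of all genes. The median log2 fold change was -0.11 over the 33 genes and 0.23 over all genes tested. Of the 33 genes 14 were higher and 19 lower, and of all genes 68.1% were higher. How many genes limma called depended on which young PBS library was left out. Such a fit assumes that the library left alone in its group varies like the other groups. Over all genes the median log2 difference between replicates was 0.516 in young PBS, against 0.236 in old MIT-001 and 0.229 in old PBS. Adjusted p-values and counts of these fits are therefore not given for this comparison.

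The effect of the compound in old mice was compared between old MIT-001 and old PBS. Here Hpgds, Gsta3, Ggt1, Gstt3, Gstt1 and Mgst2 transcripts stood higher, and those of Gsta2, Gpx7 and Gstm6 lower, in both old MIT-001 libraries than in either old PBS library. By limma, 0 of the 33 genes and 0.0182% of all genes were called. Hpgds had the smallest adjusted p, 0.120, and 9 of the 33 genes (27.3%) had an unadjusted p below 0.05, against 11.8% of all genes. Of these, 6 were higher (18.2%) and 3 lower (9.09%) in old MIT-001, against 7.45% and 4.36% of all genes. The 6 include Ggt1, which passed the filter on low values through old MIT-001 alone and had to be higher there; without it 8 of 32 genes (25.0%) had such a p, 5 higher (15.6%) and 3 lower (9.38%). Groups did not overlap for 14 genes that were higher (42.4%) and 11 that were lower (33.3%) in old MIT-001, Ggt1 among the 14, against 27.2% and 24.2% of all genes. The median log2 fold change was 0.048 over the 33 genes and 0.035 over all genes tested. Of the 33 genes 18 were higher and 15 lower, and of all genes 53.5% were higher. With only the 4 libraries compared, limma called 1 of the 33, Gsta3, and 356 of all genes. Fits without 1 young PBS library take the spread from the same 4 libraries and are not separate results. The old PBS libraries are shared with the age comparison, where they are the numerator, so the fold changes of the 2 comparisons are not independent.

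For old MIT-001 against young PBS, the genes with an unadjusted p below 0.05 were Gclc, Ggt1 and Hpgds, which were higher, and Mgst3, which was lower in old MIT-001. These are 4 of 33 genes (12.1%), against 17.9% of all genes (2954), with 3 higher (9.09%) and 1 lower (3.03%), against 17.1% and 0.813% of all genes. Without Ggt1, which passed the filter through old MIT-001 alone, 3 of 32 genes (9.38%) had such a p. Limma called 0 of the 33 genes and 0% of all genes, and the smallest adjusted p was 0.161, for Gclc. Groups did not overlap for 10 genes, Ggt1 among them, that were higher (30.3%) and 6 that were lower (18.2%), against 37.3% and 6.56% of all genes. The median log2 fold change was 0.026 over the 33 genes and 0.24 over all genes tested.

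Which direction prevailed among genes with a small unadjusted p depended on the scaling of the libraries, above all against young PBS. Of all genes with an unadjusted p below 0.05 in the age comparison, 80.5% were higher in old PBS with TPM, 62.6% with FPKM, 52.7% with quantile normalized values and 36.2% with values centred on the median of each library. For old MIT-001 against young PBS these shares were 95.5%, 83.3%, 63.5% and 44.2%, and for old MIT-001 against old PBS 63.1%, 61%, 45.6% and 52.4%. The median over all genes moved on centring by -0.32 in the age comparison and by -0.41 for old MIT-001 against young PBS. Fold changes of the glutathione genes are therefore to be read relative to the median of all genes, which the plot of fitted differences marks.

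**Figure D2:**
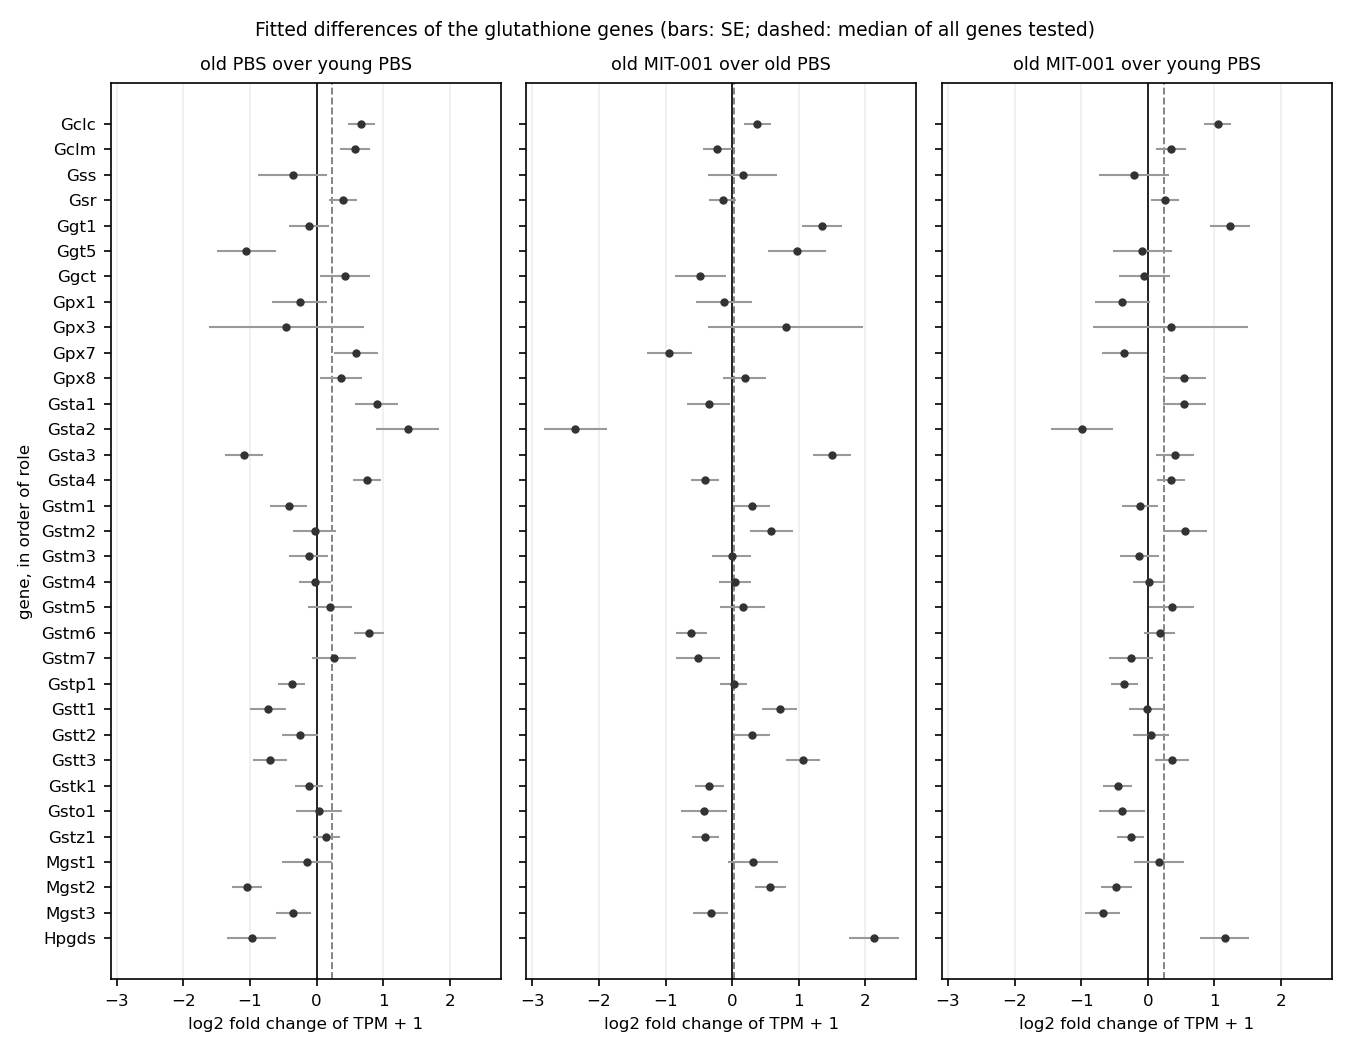
Fitted log2 fold change of TPM + 1 for each of the 33 expressed glutathione genes in the 3 comparisons, with bars of 1 standard error; the solid line is no difference and the dashed line the median of all genes tested. Gsta2, Gsta3 and Hpgds lie far from the dashed line in old MIT-001 over old PBS, at -2.35, 1.50 and 2.13, and Gpx3 has the widest bars, with a standard error of 1.16.

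Gclc encodes the catalytic subunit of glutamate-cysteine ligase. It stood at 62.5 and 66.7 TPM in the old MIT-001 libraries, at 47.6 and 51.2 TPM in old PBS and at 27.7 and 33.8 TPM in young PBS. No 2 groups overlapped, and the order was old MIT-001, old PBS, young PBS from high to low. Its log2 fold change was 1.05 ± 0.20 (SE) for old MIT-001 against young PBS (limma adjusted p 0.161), 0.67 ± 0.20 for old PBS against young PBS (adjusted p 0.224) and 0.38 ± 0.20 for old MIT-001 against old PBS (adjusted p 0.558). After centring, the smallest of the scalings tried, the fold change against young PBS was 0.64 in old MIT-001 and 0.35 in old PBS. Gclc (14629) lies on chromosome 9 of mm10 from 77754535 to 77794489, plus strand.

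Gclm, the modifier subunit that raises the ligase's activity, stood at 29.6 and 31.8 TPM in old MIT-001, at 31.2 and 41.2 TPM in old PBS and at 24.5 and 23.0 TPM in young PBS. Both groups of old mice lay above young PBS without overlap, and they overlapped each other, but old MIT-001 over young PBS turned to -0.058 after centring. The log2 fold change of old PBS over young PBS was 0.58 ± 0.23 (limma adjusted p 0.266), and 0.26 after centring. A predicted gene, Gm6061, lies inside Gclm on the same strand over 735 bases and reached 50.6 TPM, so reads may have been divided between them.

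Gss, the synthetase of the second step, did not follow the ligase genes. It stood at 47.8 and 45.7 TPM in old MIT-001 and 46.6 and 37.5 TPM in old PBS, and at 29.7 and 97.5 TPM in young PBS, whose replicates enclosed all 4 other libraries. The log2 fold change of old PBS over young PBS, -0.36 ± 0.52, therefore rested on which young PBS library was used. It was -1.20 without replicate 1 and 0.48 without replicate 2. Gsr, the reductase that regenerates glutathione, stood at 38.6 and 44.7 TPM in old MIT-001, 42.6 and 49.7 TPM in old PBS and 32.8 and 36.6 TPM in young PBS. The old groups overlapped each other and lay above young PBS, though old MIT-001 over young PBS turned to -0.16 after centring. The log2 fold change of old PBS over young PBS was 0.40 ± 0.21 (limma adjusted p 0.364), and 0.078 after centring.

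Of the 3 genes of glutathione breakdown, Ggt1 was scarce. Ggt1, a surface enzyme of epithelia that cleaves glutathione outside the cell, stood at 2.31 and 2.49 TPM in old MIT-001, at 0.220 and 0.450 TPM in old PBS and at 0.521 and 0.370 TPM in young PBS. Only the old MIT-001 libraries exceeded 1 TPM, so Ggt1 passed the filter on low values through that group alone and had to differ there. Its mean of 2.40 ± 0.126 TPM (SD, n = 2) in old MIT-001 compares with 0.335 ± 0.163 TPM in old PBS (SD, n = 2), given as a description with no test. Markers of epithelia were high in the same libraries: summed TPM of 7 surface epithelium genes was 622 and 662 in old MIT-001, 167 and 160.0 in old PBS and 250.1 and 355 in young PBS, with 7 of 7 higher in old MIT-001 than in old PBS. Summed TPM of 5 oviduct secretory genes was 768 and 358 in old MIT-001, 36.1 and 39.1 in old PBS and 105 and 193 in young PBS, with 5 of 5 higher. Their part in the Ggt1 values was not tested.

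Ggt5, which converts leukotriene C4 to leukotriene D4, shares a stretch of 56.1 kb on chromosome 10 with Ggt1 and was more abundant in every library, at 42.0 and 24.6 TPM in old MIT-001, 20.1 and 12.5 TPM in old PBS and 24.0 and 48.0 TPM in young PBS. The old PBS libraries were the lowest of the 6, and old MIT-001 and young PBS overlapped. Fitted log2 fold changes were 0.97 ± 0.44 for old MIT-001 over old PBS (adjusted p 0.469) and -1.05 ± 0.44 for old PBS over young PBS (adjusted p 0.282). Ggct, which splits gamma-glutamyl peptides into pyroglutamate and an amino acid, stood at 15.9 and 13.3 TPM in old MIT-001, 19.4 and 22.0 TPM in old PBS and 22.2 and 10.2 TPM in young PBS. Old MIT-001 lay below old PBS without overlap, and young PBS spanned both.

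Gpx3, a selenium-containing peroxidase released into plasma and extracellular fluid, had the widest range of the 34 genes in TPM. Its coordinates are chromosome 11, 54902854 to 54910387. It stood at 2283 and 2168 TPM in old MIT-001, at 1729.6 and 938 TPM in old PBS and at 460.5 and 6626 TPM in young PBS. The young PBS replicates were the lowest and the highest of the 6 libraries. In young PBS replicate 2, Gpx3 alone made up 46.8% of the summed TPM of the 34 genes, against 8.00% in young PBS replicate 1. With all libraries the log2 fold change was -0.46 ± 1.16 for old PBS over young PBS (limma adjusted p 0.878) and 0.35 ± 1.16 for old MIT-001 over young PBS (adjusted p 0.925). Against young PBS replicate 2 alone, Gpx3 was lower in old PBS, at -2.38, and against replicate 1 alone the sign turned, at 1.47. The fold change of old MIT-001 over old PBS was 0.80 ± 1.16 (adjusted p 0.905).

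Of 4 genes of the corpus luteum, Akr1c18 and Ptgfr had nearly the order of libraries of Gpx3, and Sfrp4 and Parm1 did not. Akr1c18, the enzyme that inactivates progesterone in luteal cells, stood at 7777 and 13328 TPM in old MIT-001, 3597 and 1164 TPM in old PBS and 425 and 13608 TPM in young PBS. The order of the libraries was that of Gpx3 except for the old MIT-001 replicates, which changed places, and Ptgfr, the prostaglandin F receptor gene, had the same order as Akr1c18. Sfrp4 was lowest in young PBS replicate 1 too, but highest in old MIT-001 replicate 1, and Parm1 was lowest in old MIT-001 replicate 1 and highest in old PBS replicate 2. Summed TPM of the 4 luteal genes was 15681 and 17153 in old MIT-001, 10659.8 and 5647 in old PBS and 1466 and 20665 in young PBS. Of the 4, 3 were higher in old PBS than in young PBS by fold change and 0 were called. Their part in the Gpx3 values was not tested.

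**Figure D3:**
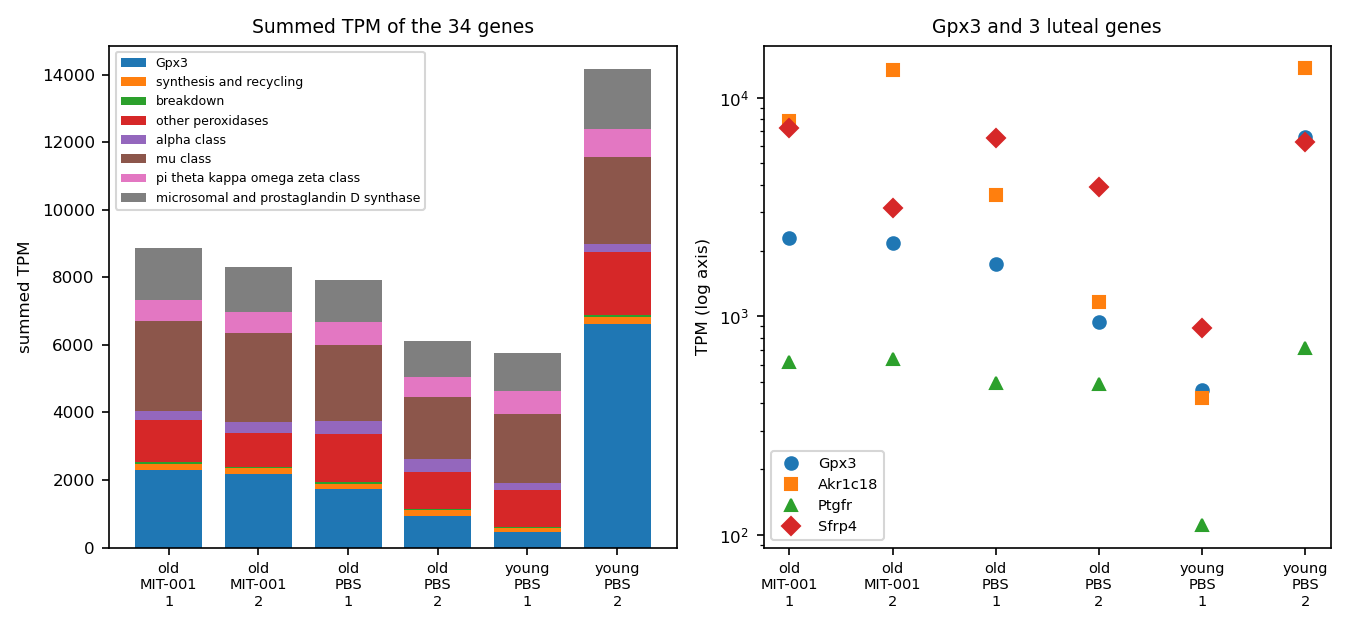
Left, summed TPM of the 34 glutathione genes in each library, stacked by role, with Gpx3 shown apart from the other peroxidase genes; right, TPM of Gpx3 and of the luteal genes Akr1c18, Ptgfr and Sfrp4 in each library on a log axis. The stack is tallest in young PBS replicate 2 (14154 TPM) and lowest in young PBS replicate 1 (5755 TPM), and Gpx3, Akr1c18 and Ptgfr have their lowest and highest values in the same libraries, while Sfrp4 is highest in old MIT-001 replicate 1.

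Gpx1, the ubiquitous peroxidase of cytosol and mitochondria, stood at 1077 and 835 TPM in old MIT-001, 1217 and 877 TPM in old PBS and 867 and 1755 TPM in young PBS, and all groups overlapped. Gpx7 and Gpx8, peroxidases of the endoplasmic reticulum that use cysteine in place of selenocysteine, differed from it and from each other. Gpx7 stood at 52.3 and 60.0 TPM in old MIT-001, 101 and 117 TPM in old PBS and 100.3 and 51.0 TPM in young PBS. Both old PBS libraries were above the other 4, young PBS replicate 1 by a narrow margin. On the log2 scale the fold change was -0.94 ± 0.34 for old MIT-001 over old PBS (limma adjusted p 0.353) and 0.59 ± 0.34 for old PBS over young PBS (adjusted p 0.399). Without young PBS replicate 1 the age comparison gave 1.07, and without replicate 2 it gave 0.11. Gpx8 stood at 125 and 108 TPM in old MIT-001, 101 and 103 TPM in old PBS and 108 and 57.4 TPM in young PBS, with old MIT-001 above old PBS and young PBS replicate 2 the lowest library.

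The alpha class transferases act on lipid peroxides, and in humans the A3 enzyme is also an isomerase in steroid synthesis. Of the 4 genes, 3 were higher and 1 lower in old PBS than in young PBS, where 68.1% of all genes were higher. Between the old groups, 1 was higher and 3 were lower in old MIT-001 without overlap, against 27.2% and 24.2% of all genes. Gsta3 (chromosome 1, 21240565 to 21265575) stood at 30.9 and 26.0 TPM in old MIT-001, 9.45 and 9.26 TPM in old PBS and 16.8 and 26.2 TPM in young PBS. Both old PBS libraries were below all 4 others, which overlapped each other. Mean TPM was 28.4 ± 3.42 in old MIT-001 and 9.36 ± 0.135 in old PBS (SD, n = 2 each), a ratio of 3.04, and the log2 fold change was 1.50 ± 0.28 (limma adjusted p 0.141). It passed limma's test at an adjusted p of 0.0400 with only the 4 libraries compared, where the young PBS libraries do not enter the spread. Fits without 1 young PBS library take the spread from the same 4 libraries and add no separate support. With an old MIT-001 or old PBS library left out the adjusted p was 0.387 to 0.753, and over all alternatives the fold change was 1.38 to 1.62. The fold change of old PBS over young PBS was -1.09 ± 0.28 (adjusted p 0.213), with -1.39 without young PBS replicate 1 and -0.78 without replicate 2.

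Gsta2 (chromosome 9, 78331018 to 78347192) had the opposite order. It stood at 8.23 and 3.50 TPM in old MIT-001, 26.1 and 39.0 TPM in old PBS and 16.0 and 8.59 TPM in young PBS. No 2 groups overlapped, with old PBS highest and old MIT-001 lowest. Old MIT-001 and young PBS were apart by a narrow margin, 8.23 against 8.59 TPM. The log2 fold change was -2.35 ± 0.47 for old MIT-001 over old PBS (limma adjusted p 0.151), 1.37 ± 0.47 for old PBS over young PBS (adjusted p 0.237) and -0.99 ± 0.47 for old MIT-001 over young PBS (adjusted p 0.340). In TPM, the mean of old MIT-001 was 0.180 times that of old PBS.

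Gsta1, a near neighbour of Gsta2, was scarce, at 2.17 and 2.16 TPM in old MIT-001, 3.39 and 2.72 TPM in old PBS and 0.824 and 1.56 TPM in young PBS. It was highest in old PBS, like Gsta2, but 19.8% of the 100-base stretches of its transcript occur in Gsta2 too, so its small values may hold reads of that gene. The fold change of old PBS over young PBS was 0.90 ± 0.32 (adjusted p 0.247). Gsta4, which conjugates the lipid aldehyde hydroxynonenal and lies in the same cluster of 155.2 kb, was the most abundant of the class, at 231 and 277 TPM in old MIT-001, 352 and 319 TPM in old PBS and 189 and 208 TPM in young PBS. No 2 groups overlapped, in the order old PBS, old MIT-001, young PBS from high to low, but after centring the fold change of old MIT-001 over young PBS turned to -0.065. Its log2 fold change was 0.75 ± 0.21 for old PBS over young PBS (adjusted p 0.223) and -0.40 ± 0.21 for old MIT-001 over old PBS (adjusted p 0.545).

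Summed TPM of granulosa markers was highest in the old PBS libraries, and that of theca and steroidogenic markers was highest in young PBS replicate 2. Summed TPM of 9 granulosa genes was 2009 and 2977 in old MIT-001, 5594 and 7042 in old PBS and 2728 and 2613 in young PBS, with 9 of 9 higher in old PBS than in young PBS and 9 of 9 lower in old MIT-001 than in old PBS. Summed TPM of 6 theca and steroidogenic genes was 22834 and 21483 in old MIT-001, 33070.1 and 30886 in old PBS and 19717 and 38765 in young PBS, whose replicates were the lowest and the highest of the 6. By fold change, 5 of these 6 genes were higher and 1 lower in old PBS than in young PBS. In old MIT-001, 6 of 6 were lower than in old PBS. Of all genes tested, 68.1% were higher in old PBS than in young PBS. In old MIT-001 over old PBS that share was 53.5%. The part of the granulosa, theca and steroidogenic markers in the values of the alpha class genes, and that of the oocyte genes given above, was not tested.

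**Figure D4:**
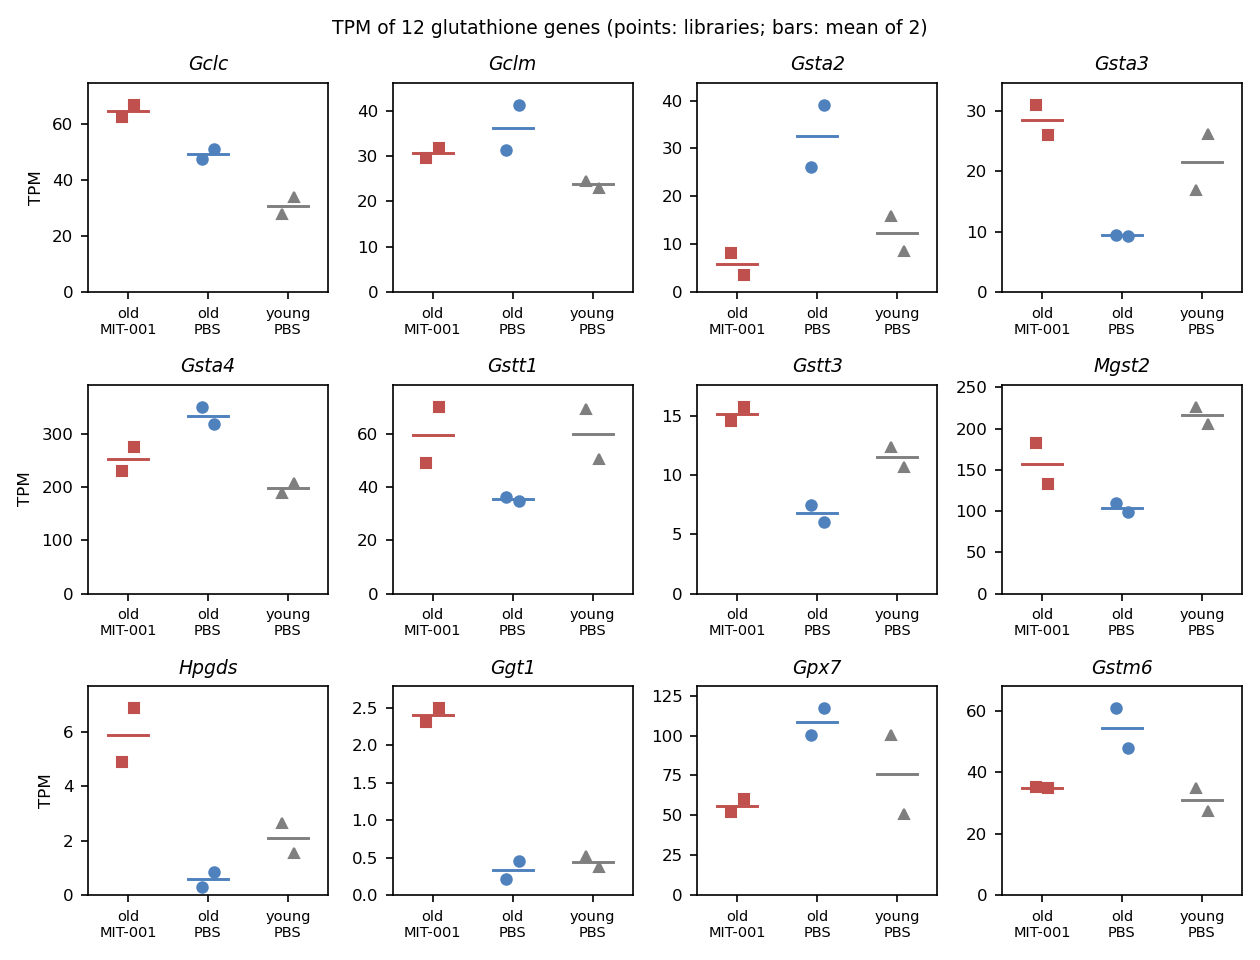
TPM of 12 glutathione genes in each library on axes that start at 0, with points for libraries and a bar at the mean of each group of 2; groups run from old MIT-001 to old PBS and young PBS. Gsta2, Gsta4, Gpx7 and Gstm6 are highest and Gsta3, Gstt1, Gstt3, Mgst2 and Hpgds lowest in the old PBS libraries, while Ggt1 is above 1 TPM only in the old MIT-001 libraries.

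The 7 mu class genes lie within 149.3 kb of chromosome 3, from 107895854 to 108045179, and differed in level by more than 100-fold. Gstm1 and Gstm2, which conjugate electrophiles and are prominent in liver, led. Gstm2 stood at 1437 and 1444 TPM in old MIT-001, 1055 and 866 TPM in old PBS and 776 and 1219 TPM in young PBS. Both old MIT-001 libraries were above the other 4, with a log2 fold change of 0.59 ± 0.32 over old PBS (adjusted p 0.574). Gstm1 stood at 971 and 988 TPM in old MIT-001, 903 and 698 TPM in old PBS and 972 and 1163 TPM in young PBS, with old PBS the lowest group.

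Gstm6 stood out from this cluster. Its TPM was 35.2 and 34.9 in old MIT-001, 60.9 and 48.0 in old PBS and 34.9 and 27.3 in young PBS. Old PBS was above both other groups, with a log2 fold change of 0.79 ± 0.23 over young PBS (adjusted p 0.224), while that of old MIT-001 over old PBS was -0.61 ± 0.23 (adjusted p 0.379). Gstm7, in the cluster beside it, had 105 and 64.9 TPM in old MIT-001, 123 and 114 TPM in old PBS and 126 and 76.8 TPM in young PBS, so that old MIT-001 lay below old PBS and young PBS spanned the old PBS values.

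The other 3 mu class genes mostly overlapped between groups. Gstm5 had 82.2 and 82.0 TPM in old MIT-001, 76.1 and 71.1 TPM in old PBS and 90.3 and 44.9 TPM in young PBS. Gstm4 had 28.3 and 28.1 TPM in old MIT-001, 30.6 and 24.1 TPM in old PBS and 24.2 and 31.6 TPM in young PBS. Gstm3 had 5.86 and 5.81 TPM in old MIT-001, 6.27 and 5.48 TPM in old PBS and 5.37 and 7.72 TPM in young PBS. Gstm3 and Gstm4 overlapped in all 3 comparisons, and Gstm5 was apart only between old MIT-001 and old PBS. Transcripts of the class share few exact stretches: 1.65% to 2.41% of 100-base stretches for Gstm3 with Gstm1 and Gstm6, and 0 for the other pairs of the class.

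Of the theta class, whose members conjugate small halogenated compounds and lie within 63.3 kb of chromosome 10, Gstt1 and Gstt3 were lowest in old PBS. Gstt3 stood at 14.5 and 15.8 TPM in old MIT-001, 7.49 and 6.07 TPM in old PBS and 12.4 and 10.7 TPM in young PBS. No 2 groups overlapped, with old MIT-001 highest, but its fold change over young PBS changed sign after centring and after quantile normalization, to -0.074 at the lowest. Its log2 fold change was 1.06 ± 0.26 for old MIT-001 over old PBS (adjusted p 0.212) and -0.69 ± 0.26 for old PBS over young PBS (adjusted p 0.252). Gstt1 stood at 49.0 and 70.1 TPM in old MIT-001, 36.3 and 34.6 TPM in old PBS and 69.4 and 50.6 TPM in young PBS. Old MIT-001 and young PBS covered the same range and old PBS lay below both, with log2 fold changes of 0.71 ± 0.26 for old MIT-001 over old PBS (adjusted p 0.372) and -0.73 ± 0.26 for old PBS over young PBS (adjusted p 0.250). Gstt2 overlapped between all groups, at 21.7 and 17.4 TPM in old MIT-001, 17.9 and 13.6 TPM in old PBS and 21.2 and 16.6 TPM in young PBS.

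The remaining soluble classes were measured by a single gene each. Gstp1, the pi class enzyme, had 281 and 311 TPM in old MIT-001, 300.0 and 283 TPM in old PBS and 355 and 401 TPM in young PBS. Both young PBS libraries were the highest, but 52.8% of the 100-base stretches of its transcript also occur in Gstp2, so the division of reads between these copies is uncertain. Gsto1, an omega class enzyme that reduces dehydroascorbate, had 169 and 120.5 TPM in old MIT-001, 212 and 174 TPM in old PBS and 138 and 253 TPM in young PBS. Gstk1, the kappa class enzyme of mitochondria and peroxisomes, had 36.2 and 28.4 TPM in old MIT-001, 42.5 and 39.4 TPM in old PBS and 42.8 and 45.8 TPM in young PBS. Gstk1 was lowest in old MIT-001, whose libraries did not overlap with either other group, and Gsto1 was lower in old MIT-001 than in old PBS. Gstz1, which acts in tyrosine breakdown, had 50.9 and 49.0 TPM in old MIT-001, 74.3 and 59.4 TPM in old PBS and 62.6 and 57.2 TPM in young PBS, with old MIT-001 again lowest. Gstz1 overlaps Pomt2, at up to 19.9 TPM, on the other strand over 808 bases, as 4933431E20Rik, at up to 7.34 TPM, does Gstm5 over 360 bases, and the strand setting of the quantification is not given in the sources used here.

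Mgst1, the abundant microsomal transferase of endoplasmic reticulum and mitochondria, stood at 1294 and 1161 TPM in old MIT-001, 1065 and 909 TPM in old PBS and 785 and 1500.2 TPM in young PBS. Old MIT-001 was above old PBS without overlap, and young PBS enclosed all 4. Mgst2, which can make leukotriene C4, stood at 182 and 133 TPM in old MIT-001, 109.7 and 98.5 TPM in old PBS and 226 and 206 TPM in young PBS. No 2 groups overlapped, with young PBS highest and old PBS lowest. Its log2 fold changes were -1.05 ± 0.23 for old PBS over young PBS (adjusted p 0.210) and 0.58 ± 0.23 for old MIT-001 over old PBS (adjusted p 0.408). Mgst3, a related membrane enzyme, stood at 47.7 and 43.2 TPM in old MIT-001, 53.9 and 60.4 TPM in old PBS and 91.4 and 58.4 TPM in young PBS. It was lowest in old MIT-001, with a log2 fold change of -0.67 ± 0.26 against young PBS (adjusted p 0.255).

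Hpgds encodes the haematopoietic prostaglandin D synthase, a sigma class transferase of mast cells, macrophages and some lymphocytes (chromosome 6, 65117293 to 65144981). It stood at 4.88 and 6.87 TPM in old MIT-001, 0.301 and 0.857 TPM in old PBS and 2.66 and 1.55 TPM in young PBS. No 2 groups overlapped, with old MIT-001 highest and old PBS below 1 TPM. The log2 fold change was 2.13 ± 0.37 for old MIT-001 over old PBS (limma adjusted p 0.120), 1.15 ± 0.37 for old MIT-001 over young PBS (adjusted p 0.193) and -0.97 ± 0.37 for old PBS over young PBS (adjusted p 0.259). In old MIT-001 over old PBS it ranged from 1.50 to 3.25 over the alternatives, with adjusted p from 0.0526 to 0.751.

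Immune cell markers were low in the same old PBS libraries. Summed TPM of 8 macrophage genes was 392 and 376 in old MIT-001, 140.5 and 161 in old PBS and 886 and 830.1 in young PBS, with 8 of 8 lower in old PBS than in young PBS and 8 of 8 higher in old MIT-001 than in old PBS. Summed TPM of 5 mast cell genes was 57.0 and 1.90 in old MIT-001, 0 in both old PBS libraries and 113 and 15.5 in young PBS. Both the macrophage sum and Hpgds were lowest in old PBS. The macrophage sum was highest in young PBS, and Hpgds was highest in old MIT-001. The part of these markers in the Hpgds values was not tested.

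Genes that supply, regulate or work beside the glutathione enzymes were counted in 6 lists, and limma called 0 of their genes in each of the 3 comparisons. Their counts at an unadjusted p below 0.05 stand beside shares of all genes of 14.6% higher and 3.55% lower in old PBS over young PBS, 7.45% and 4.36% in old MIT-001 over old PBS, and 17.1% and 0.813% in old MIT-001 over young PBS. Of 8 genes of cysteine and glutamate supply, 1 was higher at an unadjusted p below 0.05 in old PBS over young PBS, 1 in old MIT-001 over old PBS and 4 in old MIT-001 over young PBS. Slc1a1, a carrier of glutamate and cysteine, stood at 17.4 and 13.8 TPM in old MIT-001, 1.26 and 1.29 TPM in old PBS and 1.15 and 7.17 TPM in young PBS. Its adjusted p was 0.182 for old MIT-001 over old PBS. Slc7a11, the cystine carrier, was near the limit of expression, at 1.81 and 1.65 TPM in old MIT-001, 0.473 and 0.825 TPM in old PBS and 0.413 and 0.0891 TPM in young PBS. Slc7a11 is among the 4 genes higher in old MIT-001 over young PBS. Like Ggt1, it passed the filter through old MIT-001 alone and had to be higher there.

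Of 18 genes of NRF2, its partner KEAP1 and NRF2 targets, 1 was higher and 1 lower at an unadjusted p below 0.05 in old PBS over young PBS, 1 was higher and 0 lower in old MIT-001 over old PBS, and 0 in either direction in old MIT-001 over young PBS. The median log2 fold changes of this list were -0.033, -0.0025 and -0.10 in that order, against 0.23, 0.035 and 0.24 over all genes tested. Nqo1, a quinone reductase and common NRF2 readout, stood at 10.7 and 6.93 TPM in old MIT-001, 11.2 and 13.3 TPM in old PBS and 8.91 and 7.20 TPM in young PBS. Txnrd1, the cytosolic thioredoxin reductase, stood at 66.2 and 101 TPM in old MIT-001, 98.5 and 111 TPM in old PBS and 68.8 and 57.6 TPM in young PBS. Osgin1 stood at 20.9 and 25.1 TPM in old MIT-001, 20.7 and 18.8 TPM in old PBS and 29.4 and 33.1 TPM in young PBS. In old PBS over young PBS Txnrd1 was the gene on the higher side and Osgin1 the gene on the lower side.

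Of the thioredoxin and glutaredoxin genes (10), 1 was higher and 0 lower at an unadjusted p below 0.05 in the age comparison, which is Txnrd1 again, a gene of both lists, and 0 in either direction in both others. Of 15 tested genes of glutathione transport and further breakdown, 3 were higher and 1 lower in old PBS over young PBS, 2 higher in old MIT-001 over old PBS and 2 higher in old MIT-001 over young PBS. Chac2, which cleaves glutathione in the cytosol, stood at 10.5 and 12.3 TPM in old MIT-001, 10.6 and 14.7 TPM in old PBS and 5.87 and 3.04 TPM in young PBS, with the old groups above young PBS. Among 11 tested genes of other transferases and related membrane proteins, 2 were lower in old PBS over young PBS, and 1 was higher and 1 lower in old MIT-001 over old PBS. These 2 lower genes were Ltc4s, the leukotriene C4 synthase, at 6.38 and 6.36 TPM in old MIT-001, 5.0 and 3.29 TPM in old PBS and 8.80 and 18.3 TPM in young PBS, and Alox5ap, its partner in leukotriene synthesis. Of 6 genes of selenoprotein synthesis, which the selenium-containing peroxidases need, 2 were higher at an unadjusted p below 0.05 in old PBS over young PBS. In old MIT-001 over old PBS 0 had such a p, and 1 was higher in old MIT-001 over young PBS. Selenop, the selenium carrier of plasma, stood at 639 and 599 TPM in old MIT-001, 388 and 494 TPM in old PBS and 455 and 368 TPM in young PBS, with both old MIT-001 libraries the highest of the 6.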

How the data were processed

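Ovary mRNA was sequenced in 6 libraries, from total RNA with SMARTer mRNA kits (the labels' protocols). The submitters' processing notes name Trimmomatic, HISAT2, StringTie and mm10; versions, annotation and strand are details not given in the sources used here. The deposited TPM values are abundances scaled for length and to the same total in each library. The deposited FPKM values served as an alternative unit, and the deposited coverage (mean read depth per gene by the file headers) only to estimate depth. Without read counts, only the spread between libraries measures precision.

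Genes were matched by NCBI Gene ID to symbols of a RefSeq table of GRCm38.p6, and 98 rows without a symbol (0.0145% to 0.0301% of TPM) were left out. Groups came from the labels. Genes reaching 1 TPM in 2 or more libraries were fitted as log2(TPM + 1) with limma 3.58.1 (R 4.3.3): 1 mean per group over all 6 libraries and an intensity trend, giving 3 residual and 3.12 prior degrees of freedom. Fold changes on this scale understate changes of low genes. Tests were two-sided, with Benjamini-Hochberg adjustment over 16473 genes and a call threshold of 0.05. Fold changes carry standard errors. The procedure was tested on simulated data. All 34 genes are named, with up to 3 genes of smallest p per accompanying list, except 1 gene that is not reported here. Members and lists were chosen with earlier results of these data known. Of 13 genes in the list of other transferases, 12 were matched. Promoter windows are RefSeq's; shared stretches were counted in GENCODE transcripts. Alternatives were another pseudocount, filter, unit, scaling, trend, block and set of libraries.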

Additional observations from a re-analysis of the deposited data

How the results depend on the processing

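For old PBS against young PBS, limma called 1 gene without a filter, 11 with FPKM (32 of the glutathione genes tested), 15 after median centring, 17 after quantile normalization, 1 without the intensity trend and 0 with only the 4 libraries compared, and 0 to 948 with 1 library left out (948 without young PBS replicate 1); 0 to 4 glutathione genes were then called. Their median was -0.43 after centring and -0.17 to 0.085 with 1 library left out, where Gss ranged from -1.20 to 0.48 and Gpx3 from -2.38 to 1.47. For old MIT-001 against old PBS, 0 genes were called without a filter, 1 with FPKM, 1 after centring and 356 with only the 4 libraries compared (1 glutathione gene), and 0 to 372 with 1 library left out (0 to 1 glutathione genes); their median turned to -0.045 after centring and was -0.022 to 0.17 with 1 library left out. For old MIT-001 against young PBS, 0 genes were called under every alternative tried; the median of the glutathione genes was -0.14 with FPKM, -0.39 after centring, -0.16 after quantile normalization and 0.021 to 0.15 with 1 library left out, and Gpx3 was -0.067 after centring and -1.57 to 2.27 with 1 library left out. With the replicate number as a block, 1, 0 and 0 genes were called in the 3 comparisons in this order, and 0 glutathione genes; libraries of the same number correlated at 0.00656 to 0.239 in their deviations, so the numbers are not taken to pair the libraries. Of 99 fold changes (33 genes in 3 comparisons), 38 changed sign under at least 1 alternative. Causes of these shifts were not tested beyond fewer libraries or genes entering a fit. With 2 libraries a group and no read counts, small fold changes cannot be resolved.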
